A study of Homo sapiens with 2 samples.

Results

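The aminoacyl-tRNA synthetase genes were followed after SUB1 knockdown in PC3, a metastasis-derived prostate cancer line in wide laboratory use. The genes were taken by name from the array design, under older symbols that lack the final 1 of some current ones (NARS for NARS1, for example). They comprise 34 of the 30482 genes on the array, 20 that encode cytosolic enzymes and 14 that encode mitochondrial enzymes, whose symbols end in 2. Together they had 41 of the 41000 gene probes, each spotted once per array. After dim probes were left out, 39 probes and 33 genes remained, and the brightest probe of a gene stood for it.

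RNA was compared on 2 dual-colour Agilent arrays that share a slide. The Cy3 channel of an array held RNA of cells given Non-T siRNA, a duplex without a target gene, and the Cy5 channel held RNA of cells given a SUB1 siRNA. One array was made for SUB1 siRNA 1 and one for SUB1 siRNA 2. All cells received the same duplex in a repeat transfection and were harvested 72 h after the first. Each value below is the log2 of the SUB1 siRNA signal divided by the Non-T signal on 1 array unless another quantity is named, so a negative ratio means less RNA after SUB1 siRNA. No dye was swapped, so probe-specific dye bias and siRNA effect cannot be told apart. A ratio for a single siRNA has no biological replicate, and whether both arrays carried the same Non-T RNA is not given in the sources used here.

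Aminoacyl-tRNA synthetases attach each amino acid to its tRNA, the step that sets the reading of the genetic code in protein synthesis. The cytosolic and mitochondrial compartments are served mostly by separate nuclear genes. Several cytosolic enzymes sit with scaffold proteins in the multisynthetase complex. In many cells the transcription factor ATF4 raises the RNA of cytosolic synthetases when amino acids are short or the endoplasmic reticulum is stressed, and WARS is a classical interferon-induced gene.

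SUB1 itself had -3.30 with siRNA 1 and -3.26 with siRNA 2, which left 10.2% and 10.4% of the Non-T signal. GAPDH, a glycolytic enzyme used as a reference, had 0.01 and -0.07. ACTB, the other reference gene, had 0.75 and 0.37 by its brightest probe and -0.09 and -0.35 by another of its 4 probes. All 12 probes of the 6 epithelial and mesenchymal genes listed for PC3 (KRT8, KRT18, VIM, CD44, CAV1, PLAU) were well above background in Cy3 on both arrays. The 2 probes of the leukocyte gene PTPRC were not, while the 1 probe of the endothelial gene PECAM1 was. The part of other cells in any result was not tested. The arrays carry 209 kept probes in 10 spots each, and the median SD of their log2 ratio was 0.078 with siRNA 1 and 0.074 with siRNA 2, which is the technical error within an array.

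Of the 33 synthetase genes, 26 had a ratio below 0 with siRNA 1 and 20 with siRNA 2, compared with 45.9% and 46.4% of all 19218 genes kept. The median ratio of the synthetase genes was -0.12 with siRNA 1 and -0.07 with siRNA 2, beside 0.02 and 0.02 over all genes. Cytosolic genes made up 17 of the 26 below 0 with siRNA 1, near their share of the genes measured (20 of 33). For these 20 genes, 17 were below 0 with siRNA 1 and 11 with siRNA 2, with medians of -0.23 and -0.03. For the 13 mitochondrial genes measured, 9 were below 0 with each siRNA, with medians of -0.08 and -0.11.

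How far these medians lay from 0 depended on how the dyes were balanced. With median centring of each array in place of loess, the median of all genes kept shifted to 0.13 with siRNA 1 and 0.12 with siRNA 2. Relative to the median of all genes, the cytosolic median with siRNA 1 ranged from -0.34 to -0.14 over the settings tried and was below it in each. The cytosolic median with siRNA 2 ranged from -0.08 to 0.12 relative to all genes and so changed direction, being above it with median centring. The mitochondrial median lay between -0.11 and 0.02 with siRNA 1, changing direction with median centring, and between -0.20 and -0.0033 with siRNA 2. With median centring 13 of 20 cytosolic genes lay below the median of all genes with siRNA 1 and 8 of 20 with siRNA 2.

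**Figure D1:**
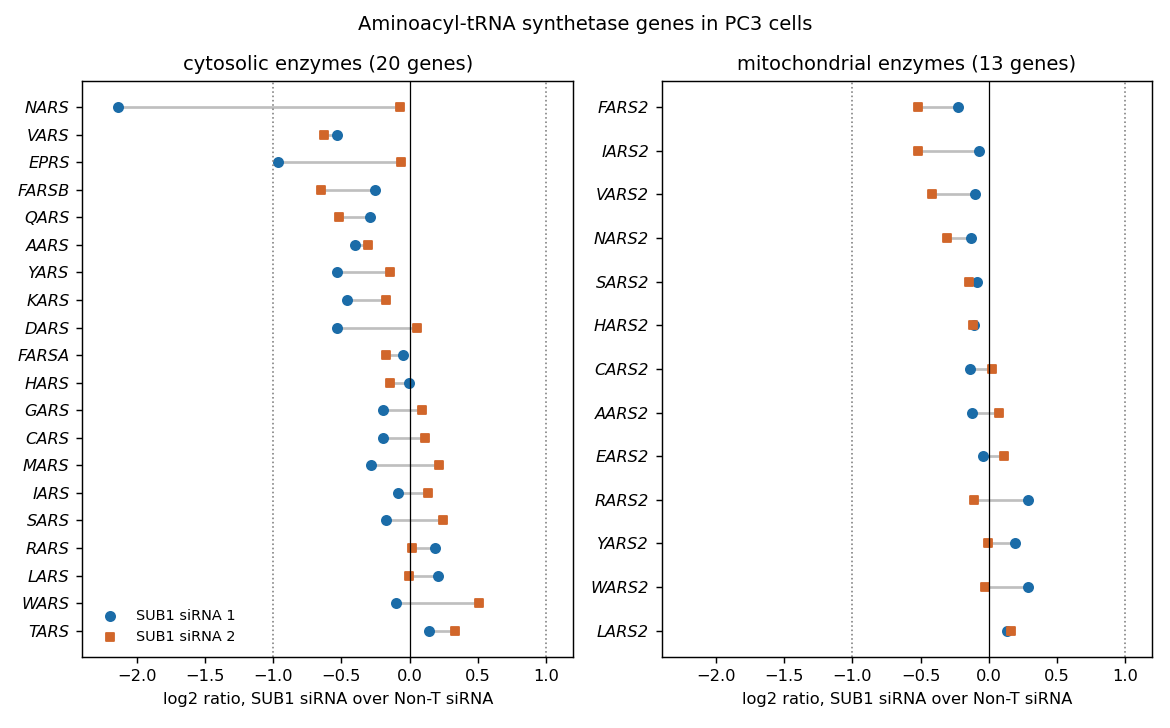
Log2 ratio (SUB1 siRNA over Non-T) for the 33 synthetase genes measured, with 1 array per siRNA (circles, siRNA 1; squares, siRNA 2), ordered by the mean of both; grey lines join the siRNAs of a gene and dotted lines mark a 2-fold change. NARS lies at -2.14 with siRNA 1 and at -0.07 with siRNA 2, and no other gene reaches a dotted line.

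By the rule of an at least 2-fold change, 1 synthetase gene was lower with siRNA 1 and 0 were higher, where 0.609% of all genes were at least 2-fold lower and 0.208% at least 2-fold higher. With siRNA 2, 0 synthetase genes were 2-fold lower and 0 were higher, where the shares of all genes were 1.07% and 0.614%. The 2-fold rule thus named a single member, NARS. At a log2 ratio of 0.5, a smaller bound chosen after the values were seen, 5 synthetase genes were lower with siRNA 1 (NARS, EPRS, YARS, VARS and DARS) and 0 were higher. Among all genes 4.33% were lower by that bound with siRNA 1 and 3.88% higher. With siRNA 2, 5 were lower (FARSB, VARS, FARS2, IARS2 and QARS) and 1 was higher (WARS), where 6.07% of all genes were lower and 5.39% higher. VARS was the 1 gene in both sets of lower genes. These counts were not stable, since median centring left 2 lower genes with siRNA 1 and 0 with siRNA 2.

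The mean ratio of both siRNAs was tested against 0 with limma, with Benjamini-Hochberg adjustment over all 19218 genes. No synthetase gene passed an adjusted p of 0.05, where 0.0052% of all genes did, and that single gene was SUB1. At an unadjusted p of 0.05, 6 synthetase genes were lower (VARS, QARS, AARS, FARSB, FARS2 and KARS) and 0 were higher, beside 9.91% of all genes lower and 11.0% higher. Adjusted p-values of the synthetase genes ran from 0.114 to 0.920. This test takes the siRNAs as replicates of the knockdown and leaves out the spread of the control. The SD between siRNAs had a median of 0.16 over the synthetase genes and 0.11 over all genes.

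NARS, the cytosolic asparaginyl-tRNA synthetase, differed most between the siRNAs. Its probe lies at chr18:53419188-53419247 on the minus strand of hg18, the build of the array design. On the siRNA 1 array its spot had a mean intensity of 1599 in Cy3 and 434 in Cy5, and on the siRNA 2 array 1366 in Cy3 and 1588 in Cy5. Log2 signals of single channels, here and below, are given after background correction, loess and quantile scaling between arrays. For NARS they were 10.63 in Cy3 and 8.49 in Cy5 with siRNA 1, and 10.66 and 10.59 with siRNA 2. The Cy5 signal with siRNA 1 was thus low while the 3 others lay close together. The ratio was -2.14 with siRNA 1, a 4.41-fold decrease that left 22.7% of the Non-T signal, and -0.07 with siRNA 2. NARS had rank 3 from the lowest ratio of 19218 genes with siRNA 1 and rank 6977 with siRNA 2. No other probe for NARS was on the array, and neither spot carried an outlier mark. Its mean ratio of -1.10 had an SE of 0.50 and an adjusted p of 0.290 (limma, Benjamini-Hochberg). The difference of 2.07 between siRNAs stood at percentile 99.99 of all genes.

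NARS was among 117 genes at least 2-fold lower with siRNA 1. Of these 117, NARS included, 40 had a ratio within 0.25 of 0 with siRNA 2 and 27 were also at least 2-fold lower with siRNA 2. The share of all genes within 0.25 of 0 with siRNA 2 was not counted, so the 40 cannot be read as an excess. The bound of 0.25 was chosen after the values were seen.

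EPRS, the bifunctional enzyme that charges both glutamic acid and proline tRNAs and belongs to the multisynthetase complex, had the next lowest ratio with siRNA 1. Its log2 signals were 12.45 in Cy3 and 11.49 in Cy5 with siRNA 1, and 12.48 and 12.41 with siRNA 2. The ratio was -0.96 with siRNA 1, a 1.95-fold decrease, and -0.07 with siRNA 2. As for NARS, the Cy5 signal with siRNA 1 was the low one. The difference of 0.90 stood at percentile 99.06 of all genes. The adjusted p of its mean ratio was 0.290 in limma with Benjamini-Hochberg adjustment. Its ratio with siRNA 2 became positive with median centring (0.25).

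DARS, the aspartyl-tRNA synthetase of the same complex, had log2 signals of 12.17 in Cy3 and 11.64 in Cy5 with siRNA 1 and of 12.20 and 12.25 with siRNA 2. Its ratio was -0.53 with siRNA 1 and 0.05 with siRNA 2. YARS, the cytosolic tyrosyl-tRNA synthetase, had -0.53 and -0.14, and KARS, the lysyl enzyme that serves the cytosol and mitochondria from the same gene, had -0.46 and -0.17. These ratios with siRNA 1 were all lower than with siRNA 2, as for NARS and EPRS. These genes were grouped here after their values were seen, and VARS, FARSB and QARS, described below, were lower with siRNA 2.

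**Figure D2:**
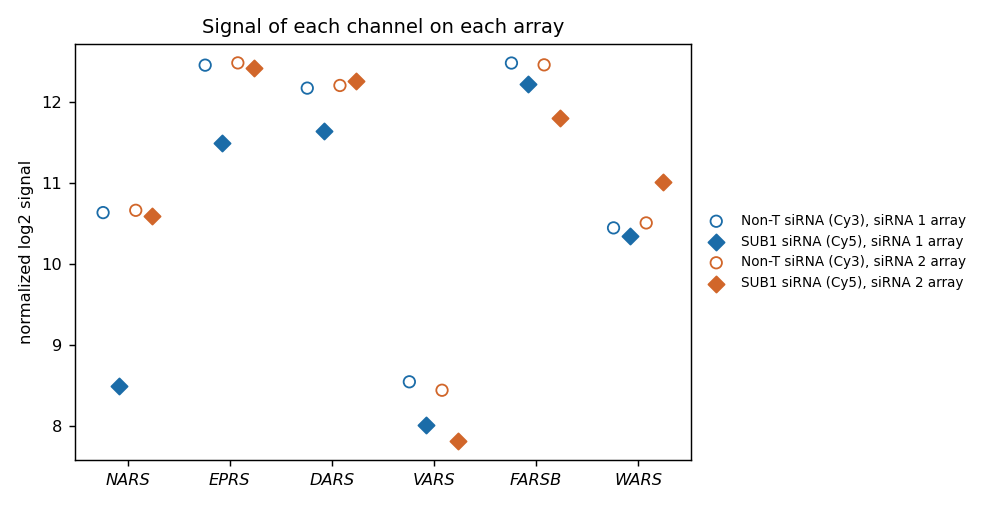
Normalized log2 signal of 6 synthetase genes in each channel of each array (open circles, Non-T siRNA in Cy3; filled diamonds, SUB1 siRNA in Cy5; blue, siRNA 1 array; orange, siRNA 2 array), 1 spot per point. The signals were quantile-scaled between arrays after loess. The open circles of a gene nearly coincide, whereas the diamonds of NARS lie 2.10 apart; heights of different genes come from different probes and are not comparable.

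VARS, the cytosolic valyl-tRNA synthetase, had the lowest adjusted p of the family. Its probe lies at chr6:31855504-31855563 on the minus strand of hg18. Its log2 signals were 8.55 in Cy3 and 8.02 in Cy5 with siRNA 1, and 8.44 and 7.82 with siRNA 2. Both Cy5 signals were below both Cy3 signals. The ratio was -0.53 with siRNA 1 and -0.63 with siRNA 2, and the mean of -0.58 had an SE of 0.097 and an adjusted p of 0.114 (limma, Benjamini-Hochberg), which missed the threshold. Over the settings tried, the siRNA 1 ratio lay between -0.57 and -0.38 and the siRNA 2 ratio between -0.78 and -0.48.

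FARSB encodes the beta subunit of the cytosolic phenylalanyl-tRNA synthetase and FARSA the alpha subunit. FARSB had -0.25 with siRNA 1 and -0.65 with siRNA 2 by its brightest probe, and -0.24 and -0.58 by the other kept probe. The FARSB probes thus gave like values, and one further FARSB probe was too dim to keep. FARSA had -0.05 and -0.17. With median centring FARSB with siRNA 1 became 0.04. The subunits of the same enzyme therefore had unequal ratios on the siRNA 2 array, a difference that was not tested.

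QARS, the glutaminyl-tRNA synthetase of the complex, had -0.29 with siRNA 1 and -0.52 with siRNA 2, and AARS, the cytosolic alanyl enzyme, had -0.40 and -0.31. Both stayed below 0 under each setting tried. The 8 genes of the complex (EPRS, DARS, KARS, QARS, IARS, LARS, MARS and RARS) had a median ratio of -0.28 with siRNA 1, 6 of them below 0, and of 0.01 with siRNA 2, with 4 below 0. The 12 other cytosolic genes had medians of -0.20 and -0.11. Within the complex LARS, the leucyl enzyme, had 0.20 and -0.00, and RARS, the arginyl enzyme, had 0.19 and 0.02. The complex genes therefore did not share a direction. By structural class, the 9 class I cytosolic genes had medians of -0.20 with siRNA 1 and 0.02 with siRNA 2, and the 10 class II genes of -0.22 and -0.11. EPRS holds a catalytic domain of each class and was left out of both.

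WARS, the cytosolic tryptophanyl-tRNA synthetase, was the highest member with siRNA 2. Its log2 signals were 10.44 in Cy3 and 10.34 in Cy5 with siRNA 1, and 10.51 and 11.01 with siRNA 2. The Cy5 signal with siRNA 2 stood above the 3 others. The ratio was -0.10 with siRNA 1 and 0.51 with siRNA 2, a 1.42-fold increase on that array. Its mean ratio of 0.20 had an adjusted p of 0.536 by limma with Benjamini-Hochberg adjustment. TARS, the cytosolic threonyl enzyme, was above 0 with both, at 0.14 and 0.33. SARS, the cytosolic seryl enzyme, had -0.17 and 0.24. MARS, the methionyl enzyme of the complex, had -0.28 and 0.22 by its brightest probe but -0.60 and -0.27 by the dimmer one. MARS with siRNA 2 thus had no settled direction.

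The mitochondrial genes with the lowest ratios were lowest with siRNA 2. FARS2, the mitochondrial phenylalanyl enzyme, had -0.22 with siRNA 1 and -0.52 with siRNA 2. IARS2, the isoleucyl enzyme, had -0.07 and -0.52, and its probe lies at chr1:218387528-218387587 on the plus strand of hg18. VARS2, the valyl enzyme, had -0.10 and -0.42 by 1 probe and -0.22 and -0.44 by the other. NARS2, the mitochondrial counterpart of NARS, had -0.13 and -0.31, so the 2-fold lower ratio of NARS with siRNA 1 had no like in NARS2. Ratios with siRNA 1 of IARS2, VARS2 and NARS2 became positive with median centring, at 0.18, 0.15 and 0.04.

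In the main processing 4 of 13 mitochondrial genes were above 0 with each siRNA. LARS2, the leucyl enzyme, had 0.13 and 0.16, the only mitochondrial gene with a positive ratio on both arrays in that processing. With median centring only 2 of 13 lay below 0 with siRNA 1 and 5 with siRNA 2, so LARS2 was then not alone. RARS2, the arginyl enzyme, had 0.29 and -0.11, WARS2, the tryptophanyl enzyme, 0.29 and -0.03, and YARS2, the tyrosyl enzyme, 0.19 and -0.01. These 3 genes were higher with siRNA 1 than with siRNA 2. HARS and HARS2, the cytosolic and mitochondrial histidyl enzymes, start 84 bases apart on opposite strands of chromosome 5. HARS had -0.00 and -0.15 by its brightest probe and -0.13 and -0.35 by the other kept probe. HARS2, with 1 probe, had -0.11 and -0.11. The probe of MARS2, the mitochondrial methionyl enzyme, was not well above background in either channel on either array, so its ratio was not measured.

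Over the family, the median difference between the siRNAs had opposite signs for the compartments, though genes of each compartment went both ways. In 13 of 20 cytosolic genes the siRNA 2 ratio exceeded that with siRNA 1, with a median difference of 0.25, as it did in 4 of 13 mitochondrial genes, with a median difference of -0.18. Over all genes kept, 49.6% were higher with siRNA 2 and the median difference was -0.0021. With 1 array per siRNA these differences have no test. After quantile scaling between arrays, the Cy3 signals of all genes differed between arrays with an SD of 0.12 (log2). The Cy5 signals differed with an SD of 0.31.

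**Figure D3:**
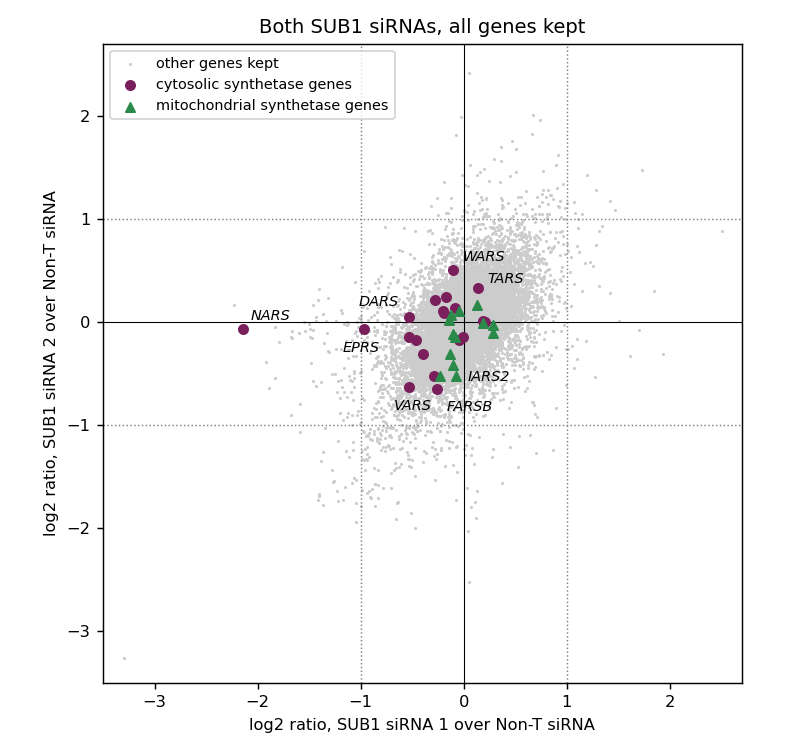
Log2 ratio with SUB1 siRNA 1 (x axis) and SUB1 siRNA 2 (y axis) for all 19218 genes kept (grey), the 20 cytosolic (purple circles) and the 13 mitochondrial (green triangles) synthetase genes, with dotted lines at a 2-fold change; the arrays may share their Non-T RNA, so the slope of the grey cloud is not a measure of agreement. NARS and EPRS lie far left and near 0 on the y axis, VARS is low on both axes, and WARS lies above 0 on the y axis alone.

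Genes around the synthetases were read from 3 lists. The first held 18 partners of charging: scaffold proteins of the complex, elongation factors that take up or exchange charged tRNA, tRNA amidation and editing enzymes, and further synthetase genes. Its 17 measured genes had medians of -0.01 with siRNA 1 and 0.04 with siRNA 2, and none was 2-fold changed on either array. Of all genes, 0.609% were at least 2-fold lower and 0.208% higher with siRNA 1, and 1.07% and 0.614% with siRNA 2. The scaffold genes had mixed ratios. AIMP1 had -0.04 and 0.20, AIMP2 had -0.36 and 0.28, and EEF1E1 had 0.08 and -0.13. The partners with the largest mean ratios were PARS2, the mitochondrial prolyl-tRNA synthetase (0.16 and 0.40), EEF1D, an elongation factor subunit (0.29 and 0.11), and EEF1B2, another such subunit (-0.09 and -0.30).

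The second list held 38 genes of the amino acid response, which ATF4 is known to drive, without the synthetases. Its 34 measured genes had a median of -0.10 with siRNA 1, with 0 at least 2-fold higher or lower, and of 0.36 with siRNA 2, with 5 at least 2-fold higher (ATF3, DDIT3, DDIT4, STC2 and NUPR1) and 0 lower. Of all genes, 0.614% were at least 2-fold higher with siRNA 2 and 1.07% lower. In 32 of 34 list genes the ratio was higher with siRNA 2, by a median of 0.41, beside 49.6% of all genes. The largest mean ratios were those of DDIT4, an inhibitor of mTORC1 signalling (0.51 and 1.68), STC2, a secreted stress-induced glycoprotein (0.85 and 1.23), and CTH, which makes cysteine (-0.73 and -0.80). ATF4 had -0.22 and 0.67, ASNS, the asparagine synthetase, 0.22 and 0.49, and TRIB3, a pseudokinase induced by ATF4, -0.97 and 0.69. ATF4, ASNS and TRIB3 were named after their values were seen. While the list had a median of 0.36 with siRNA 2, the cytosolic synthetases had -0.03 on that array.

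The third list held 28 interferon-stimulated genes, chosen because WARS is one. Its 27 measured genes had a median of -0.02 with siRNA 1, with 0 at least 2-fold changed, and of 0.77 with siRNA 2, with 11 at least 2-fold higher and 0 lower. Of all genes, 0.614% were at least 2-fold higher with siRNA 2 and 1.07% lower. All 27 were above 0 with siRNA 2 and all 27 exceeded their siRNA 1 ratio, the median difference being 0.91. Among all genes 46.4% were below 0 with siRNA 2, and 49.6% were higher with siRNA 2 than with siRNA 1. The largest mean ratios were those of RTP4 (0.67 and 2.01), ISG15, a ubiquitin-like modifier (0.67 and 1.83), and RSAD2, the antiviral enzyme viperin (0.05 and 2.42). IDO1, the interferon-induced enzyme that breaks down tryptophan, had -0.08 and 1.82 and was named after its value was seen. WARS with 0.51 lay below the median of that list on the siRNA 2 array. The lists were chosen with earlier results of these arrays known, so their direction is not independent evidence.

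**Figure D4:**
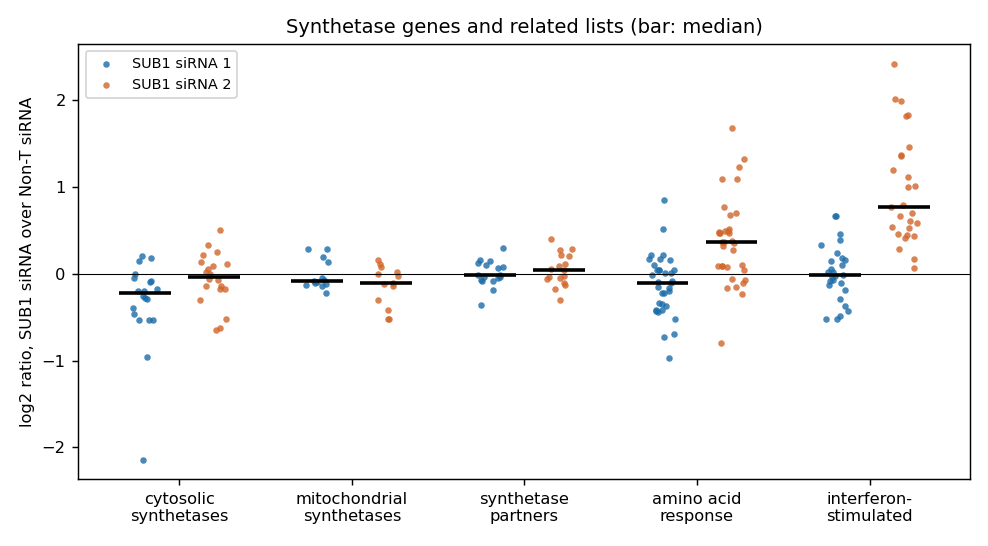
Log2 ratio (SUB1 siRNA over Non-T) for each gene of the cytosolic and mitochondrial synthetases and of the partner, amino acid response and interferon lists (blue, siRNA 1; orange, siRNA 2; black bars, medians), with 1 array per siRNA. The interferon genes all lie above 0 with siRNA 2 (median 0.77), whereas the cytosolic synthetases lie around 0 with siRNA 2 (median -0.03).

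Promoter windows were searched for letters known from these responses. Windows of 300 bases ran from 250 before to 50 after each RefSeq start on GRCh38.p14. They were at hand for 28 of the 34 genes, as 37 windows, since some genes had several starts. On both strands 8 motifs were searched after the ratios were seen. The core of the amino acid response element, TGATGCAA, lay in windows of 6 synthetase genes, AARS, CARS, IARS, MARS, NARS and TARS, all cytosolic, out of 16 cytosolic and 12 mitochondrial genes with a window. It lay in 6 of the 37 synthetase windows and in 0.866% of all 35116 windows. The 30 bases around each match are shown 5′ to 3′ on the strand of the gene with the match in capitals, because these are the members whose windows held the core. In all but NARS the match was on the opposite strand, so that it reads as the reverse complement.
TARS, chr5:33440956-33440985, plus strand: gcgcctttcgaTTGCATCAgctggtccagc
IARS, chr9:92293692-92293721, minus strand: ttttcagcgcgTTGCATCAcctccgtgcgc
CARS, chr11:3057407-3057436, minus strand: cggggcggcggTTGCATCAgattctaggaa
MARS, chr12:57488053-57488082, plus strand: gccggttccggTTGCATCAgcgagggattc
AARS, chr16:70289675-70289704, minus strand: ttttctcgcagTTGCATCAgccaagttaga
NARS, chr18:57621804-57621833, minus strand: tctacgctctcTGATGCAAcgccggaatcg

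The 6 genes with the core had a median ratio of -0.24 with siRNA 1 and 0.12 with siRNA 2, and in all 6 the ratio was higher with siRNA 2, by 0.09 to 2.07 with a median of 0.26. In the 10 other cytosolic genes with a window the medians were -0.18 and -0.11, and 5 of 10 were higher with siRNA 2, by a median of 0.08. The groups overlapped widely, and these values are a description without a test. The looser motif TGATGNAA, which includes the core, lay in 8 of the 37 synthetase windows (8 genes) and in 3.62% of all windows. CACGTG (the E box) lay in 5 of the 37 (4 genes) and 7.26% of all windows, and CCAAT in 18 (14 genes) and 34.6%. TGACG lay in 15 of the 37 (12 genes) and 24.6%, and TGACGTCA, which contains TGACG, in 0 and 1.85%.

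For WARS the interferon motifs are shown. GAAANNGAAA, the letters of an interferon-stimulated response element, lay in 3 of the 37 synthetase windows and in 3.57% of all windows. The 3 belong to 2 synthetase genes, WARS and EARS2. TTCNNNGAA, the letters of a gamma-activated site, lay in 6 of the 37 synthetase windows and in 7.66% of all windows. The 6 belong to CARS, TARS, WARS and WARS2. The WARS match to GAAANNGAAA began 55 bases before one of its RefSeq starts and is in capitals below.
WARS, chr14:100375384-100375413, minus strand: ttttcagaaggGAAACTGAAAgaaagaggg

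EARS2, the mitochondrial glutamyl-tRNA synthetase whose window also held the motif, had ratios of -0.04 and 0.11, compared with -0.10 and 0.51 for WARS. A match says only that these letters stand in the window, and binding there was not measured.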

How the data were processed

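Gene expression was measured in PC3 cells on 2 Agilent Whole Human Genome dual-colour arrays, 1 per SUB1 siRNA. The authors scanned the arrays with Agilent Feature Extraction 9.5.1.1 and deposited the raw intensity of each spot and of its background, processed intensities after background and dye correction, and 0 or 1 marks for outliers and background. Per the file headers the design build is hg18. A table deposited by the authors holds log2 ratios after loess on each array (R package agilp). Its medians were -0.0054 (siRNA 1) and -0.0068 (siRNA 2), and its correlation across probes with log2 Cy5 over Cy3 was 0.958 and 0.970, which settled its direction; the log2 scale is that of the methods. The software's own log ratios and their p-values are also in the deposited files and were not used.

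Mean spot signals were corrected by normexp (offset 50) against median local background and loess-normalized (span 0.3) with limma 3.58.1 in R 4.3.3. Signals of single channels were in addition quantile-scaled between arrays (limma, Aquantile), whereas the ratios of the main processing were not. Control spots and outlier spots (112 on the siRNA 1 array, 100 on the siRNA 2 array) were left out. Probes with at least 0.5 of their spots well above background in 1 or both channels on both arrays were kept (25673 of 41000), and the brightest probe stood for a gene. No gene spot was saturated. Genes were named through a RefSeq table (13129) or by the file (6089). A 2-fold change on each array followed the study's methods. The mean of both siRNAs was tested with limma (intercept, eBayes, Benjamini-Hochberg). Precision is limited by there being 2 arrays. The p-values rest on the spread between these arrays only, and eBayes drew each gene's spread toward that typical of all genes (prior SD 0.15).

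Named members were those changed 2-fold on either array, the 5 cytosolic and 4 mitochondrial genes at each end of the mean ratio, the 4 largest differences between siRNAs in each direction, genes whose probes disagreed in sign of the mean or by over 0.5, and genes without a kept probe. Of each list the 3 largest mean ratios were named, with SUB1, ACTB and GAPDH. Other members were named after their values were seen. The members and lists were chosen with earlier results of these data known. Alternatives were other background corrections, processed signals, median centring, quantile scaling between arrays, the authors' table, other probe filters, outlier spots kept, the mean over probes and the test at probe level. Promoter sequences are from RefSeq (GRCh38.p14). One further list of marker genes is not reported here.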

Additional observations from a re-analysis of the deposited data

Results flagged for a closer look

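In 7 synthetase genes the ratio lay on opposite sides of 0 with the siRNAs by more than the median technical SD among spots, a bound chosen after the values were seen. Over all genes kept, 13.3% met the same bound, beside 21.2% of the 33 synthetase genes, and the arrays may share their Non-T RNA. The log2 ratio with siRNA 2 minus that with siRNA 1 was 0.61 for WARS, 0.50 for MARS, 0.42 for SARS, 0.31 for CARS, 0.28 for GARS and 0.22 for IARS, all cytosolic and all higher with siRNA 2. RARS2, a mitochondrial gene, had a difference of -0.40 and was higher with siRNA 1. These differences were not tested, since each siRNA had 1 array. With median centring WARS, SARS and IARS were above 0 with both siRNAs and RARS2 likewise, so their opposite signs depended on the balance of the dyes. With the mean over both MARS probes, the MARS ratio with siRNA 2 was -0.03.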

How the results depend on the processing

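Main counts and medians were recomputed in 336 comparisons over 33 results: 306 stayed within 1.5 times (counts) or within the median SD between siRNAs over all genes (0.11, log2) and 30 moved further. With median centring, genes lower by 0.5 numbered 2 with siRNA 1 and 0 with siRNA 2, and genes higher by 0.5 numbered 2 and 2. Medians with siRNA 1 and siRNA 2 then were -0.017 and 0.24 (cytosolic), 0.15 and 0.12 (mitochondrial), 0.13 and 0.63 (amino acid response), 0.21 and 1.05 (interferon), and 0.23 and 0.28 (partners), with 1 amino acid response and 1 interferon gene 2-fold higher with siRNA 1. With processed signals the mitochondrial median was 0.062 with siRNA 1; with siRNA 2 the medians were 0.12 (cytosolic), 0.51 (amino acid response) and 0.97 (interferon), 2 synthetase genes were higher by 0.5 and 1 partner was 2-fold higher. Genes lower by 0.5 numbered 3 with siRNA 1 without background correction, 3 with siRNA 2 from median signals (1 amino acid response gene then 2-fold lower with siRNA 1), and 3 with each siRNA in the authors' table, where the interferon median with siRNA 1 was 0.11. With the mean over probes the amino acid response median with siRNA 2 was 0.25. At probe level 10 of the 39 kept synthetase probes had an unadjusted p below 0.05 (limma), and the share of all probes was not counted. At gene level 9.91% of all genes were lower and 11.0% higher at that p. NARS with siRNA 1 ran from -2.17 to -1.93 and EPRS from -0.96 to -0.69; of the 1076 comparisons of single genes and other values, 979 stayed and 97 moved. Leaving out an array leaves no replicate for a test, and slide could not be fitted as a block since both arrays share it. No paired analysis was possible because each siRNA has 1 array. Signal over background limits the dimmer probes: QARS and FARS2 had Cy3 intensities of 223 and 218 with siRNA 1, beside 128 for the median gene spot. VARS, KARS and AARS had 389, 321 and 315 with siRNA 1, whereas the brightest FARSB probe had 5435. For MARS, CARS2, HARS, LARS and VARS2 the dimmer kept probe had the lower ratio on both arrays, and for FARSB it had the higher. Whether low ratios went with dim probes was not tested.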
